A study of Mus musculus with 36 samples.

Results

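The genes described here make reactive oxygen and nitrogen species at the gut surface and in phagocytes. They are *Nox1* with *Noxo1* and *Noxa1*, *Duox2* with *Duoxa2*, *Nos2* and *Cybb*, 7 of the 52636 genes counted in the series. They were chosen by name from what is known of their function, after results of these data were known, among them the rise of *Nox1* and *Nos2* in mutant intestines over *Mlkl*-/- intestines. Comparisons of mutant with *Mlkl*-/- intestines are therefore given as descriptions, with no test of these 7 genes, apart from that of *Casp8* 1xDA/1xDA embryos. This and the other comparisons are tested, but most use the same mutant libraries. The choice of genes therefore bears on them, and counts of called members there are descriptions.

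NADPH oxidases pass electrons across a membrane to oxygen. NOX1, the superoxide-producing oxidase of the intestinal epithelium, works with the organizer NOXO1 and the activator NOXA1. DUOX2 releases hydrogen peroxide at the apical surface of epithelial cells and leaves the endoplasmic reticulum only with its maturation factor DUOXA2. *Nos2* encodes inducible nitric oxide synthase, which makes nitric oxide from arginine, and *Cybb* encodes the catalytic subunit of the phagocyte oxidase, a protein typical of macrophages and neutrophils.

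RNA came from whole intestines of embryos at E18.5 and from mouse embryonic fibroblasts (MEFs), with 3 libraries per genotype and 36 in all. In *Casp8* 1xDA/1xDA embryos, caspase-8 carries D387A, which removes a site where the protein is cut, and in *Casp8* C362A/C362A embryos it lacks its catalytic cysteine. The D387A set of 18 intestines covered *Mlkl*-/- controls, *Casp8* 1xDA/1xDA embryos, the triple mutant *Casp8* 1xDA/1xDA *Cflar*-/- *Mlkl*-/-, and the triple mutant with further loss of *Casp1*, of *Casp1* and *Ifnar1*, or of *Casp1* and *Fadd*. The C362A set of 12 intestines covered *Mlkl*-/- controls, *Casp8* C362A/C362A *Mlkl*-/-, and that genotype with loss of *Casp1* or of *Cflar*, and the 6 MEF libraries were *Mlkl*-/- or *Casp8* 1xDA/1xDA *Cflar*-/- *Mlkl*-/-. All genotypes except *Casp8* 1xDA/1xDA alone lacked *Mlkl*, the necroptosis effector, and neither set had a *Casp1*-, *Ifnar1*- or *Fadd*-deficient group with normal caspase-8. The deletions are germline, with no Cre driver, and *Cflar* and *Mlkl* of the *Casp8* 1xDA/1xDA *Cflar*-/- *Mlkl*-/- line were deleted with Cas9 and bred from 1 mosaic founder. The labels call the 3 libraries of each genotype biological replicates, untreated. Sample titles of the D387A set carry number prefixes whose meaning is not stated, shared by the *Mlkl*-/- and *Casp8* 1xDA/1xDA *Cflar*-/- *Mlkl*-/- groups and different in each other group, so prefix and genotype cannot be told apart in the comparisons that involve the latter.

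Between 17943524 and 32307629 reads per library fell on genes. *Casp1* was at most 0.212 CPM (reads scaled to library size) in the deficient intestines and 42.6 CPM or more elsewhere, *Fadd* was 0.659 to 1.01 CPM in the deficient embryos, and *Ifnar1* was 33.2 to 37.9 CPM in the deficient embryos against at least 76.1 CPM elsewhere. Reads over *Cflar* and *Mlkl* did not separate the genotypes and check nothing. The summed level of 8 epithelial markers was 3785 to 6292 CPM in the intestines and 40.5 to 67.7 CPM in the MEFs, where *Cdx2* had no reads. The third *Casp1*-deficient embryo of the D387A set stood apart: 3.96% of its genes with a mean of at least 1 CPM were more than 2-fold from the mean of the other two, against 1.60% and 1.64% for those embryos. Its *Mlkl* level was also apart (46.1 CPM against 6.27 and 7.46 CPM). Member results that rest on it are given with and without it. In the C362A set, the third embryo lacking *Cflar* had 3.24% such genes.

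*Duox2* and *Duoxa2* lie head to head on chromosome 2, with 450 bases between them. In GRCm38, *Duox2* (ENSMUSG00000068452) spans 2:122279247-122298449 on the minus strand and *Duoxa2* (ENSMUSG00000027225) spans 2:122298900-122302885 on the plus strand. *Nox1* (ENSMUSG00000031257) is on the minus strand at X:134086421-134221956, *Noxo1* (ENSMUSG00000019320) on the plus strand at 17:24696234-24700529, and *Noxa1* (ENSMUSG00000036805) on the minus strand at 2:25085667-25095149. *Nos2* (ENSMUSG00000020826) is on the plus strand at 11:78920787-78960254 and *Cybb* (ENSMUSG00000015340) on the minus strand at X:9435252-9487771. RefSeq promoters were found for 6 of the 7 genes, all but *Nos2*. The 250 bases before the start are shown for the 3 genes in which a searched motif matched. *Noxo1*, *Noxa1* and *Duox2* held no match, and a link of motifs to levels was not tested. They read 5′ to 3′ on the strand of the gene in GRCm38.p6, and capitals mark the match: a kappa-B form (GGG, 2 free bases, TTTCC), read from the opposite strand, for *Nox1* at chrX:134111855-134112104, TATAAA for *Duoxa2* at chr2:122298650-122298899, and a core form of the interferon-stimulated response element (GAAA, 2 free bases, GAAA) for *Cybb*, on either strand, at chrX:9469325-9469574.

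Nox1: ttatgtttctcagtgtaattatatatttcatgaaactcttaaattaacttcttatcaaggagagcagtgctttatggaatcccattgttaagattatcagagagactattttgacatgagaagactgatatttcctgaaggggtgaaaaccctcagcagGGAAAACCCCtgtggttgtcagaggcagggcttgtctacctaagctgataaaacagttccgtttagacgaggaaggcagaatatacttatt
Duoxa2: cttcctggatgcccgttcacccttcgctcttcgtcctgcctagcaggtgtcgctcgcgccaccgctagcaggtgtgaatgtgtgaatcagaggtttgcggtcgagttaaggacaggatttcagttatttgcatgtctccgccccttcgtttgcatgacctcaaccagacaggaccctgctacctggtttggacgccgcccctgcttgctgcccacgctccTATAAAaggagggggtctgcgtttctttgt
Cybb: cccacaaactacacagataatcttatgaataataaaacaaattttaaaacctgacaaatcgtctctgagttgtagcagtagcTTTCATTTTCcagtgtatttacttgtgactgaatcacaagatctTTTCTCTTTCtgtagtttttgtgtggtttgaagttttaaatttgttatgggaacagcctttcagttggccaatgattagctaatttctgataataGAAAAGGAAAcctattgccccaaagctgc

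The starts of *Nox1* and *Cybb* in RefSeq lie inside the longer spans of the deposited annotation. The window of *Nox1* held the kappa-B form 91 bases before the start, which 1.63% of 32817 promoters hold. TATAAA began 30 bases before the start of *Duoxa2* and was in 13.6% of promoters. The interferon-stimulated form occurred 3 times before *Cybb* and was in 3.43% of promoters. A last motif, the GAS form (TTC, 3 free bases, GAA; 8.29% of promoters), matched in none of the 6. Both strands and 50 bases after the start were searched, and a match is a description of the letters only.

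In *Mlkl*-/- intestines of the D387A set, the organizer and activator were well above the oxidase they serve. Scaled to gene length (RPKM), *Noxo1* was at 13.8 ± 0.845 (SD, n = 3), *Noxa1* at 4.01 ± 0.460 and *Cybb* at 2.16 ± 0.124. *Duoxa2* (0.391 ± 0.369), *Duox2* (0.351 ± 0.301), *Nos2* (0.187 ± 0.0617) and *Nox1* (0.0728 ± 0.0222) were all under 1 RPKM. *Nox1* had only 11 reads over the 3 embryos, and in the C362A set's *Mlkl*-/- intestines it had 3. The order of the first 3 genes held in every control embryo, whereas the ranges of *Duoxa2*, *Duox2* and *Nos2* overlapped.

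In *Casp8* 1xDA/1xDA *Cflar*-/- *Mlkl*-/- intestines that order was turned over. *Duoxa2* was highest at 103 ± 7.42 RPKM, followed by *Duox2* at 65.9 ± 3.14, *Noxo1* at 46.0 ± 4.48, *Nos2* at 35.7 ± 8.76, *Nox1* at 16.04 ± 1.10, *Noxa1* at 14.5 ± 2.62 and *Cybb* at 5.92 ± 1.38. *Nox1* and *Noxa1* overlapped, and the other neighbours in the order did not.

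The oxidase *Nox1* had 0.252, 0.158 and 0.150 CPM in the *Mlkl*-/- embryos and 40.3, 44.3 and 38.8 CPM in the *Casp8* 1xDA/1xDA *Cflar*-/- *Mlkl*-/- embryos, a log2 fold change of 7.74 (SE 0.733). The groups were far apart, and the control level rests on few reads. *Noxo1* had 33.0, 30.2 and 29.5 CPM in controls and 97.6, 115 and 96.9 CPM in the mutants (log2 fold change 1.74, SE 0.288). *Noxa1* had 7.26, 5.78 and 6.40 CPM in controls and 26.4, 25.4 and 18.6 CPM in the mutants (1.86, SE 0.196). In fold change the catalytic subunit thus differed by far more than its 2 partners, which were already present in the controls.

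*Duox2* had 1.21, 0.841 and 4.0 CPM in controls and 375, 398 and 363 CPM in the *Casp8* 1xDA/1xDA *Cflar*-/- *Mlkl*-/- embryos (log2 fold change 7.54, SE 0.908). *Duoxa2* had 0.302, 0.263 and 1.30 CPM in controls and 173, 151 and 169 CPM in the mutants (8.02, SE 1.04). The third control embryo was the highest for both genes, and every mutant was above it. Without that control the log2 fold changes were 8.51 for *Duox2* and 9.15 for *Duoxa2*. *Nos2* had 0.907, 0.998 and 0.500 CPM in controls and 177, 173 and 109.9 CPM in the mutants (7.57, SE 0.641). *Cybb*, the phagocyte gene, had the smallest difference, with 10.3, 10.8 and 9.65 CPM in controls and 25.8, 23.1 and 35.5 CPM in the mutants (1.45, SE 0.162). All 7 genes passed the thresholds of a call (adjusted p under 0.05 and log2 fold change above 1 or below -1), as 9.40% of the 18360 genes tested did upward, but this contrast was known when they were chosen and nothing is read from the count.

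**Figure D1:**
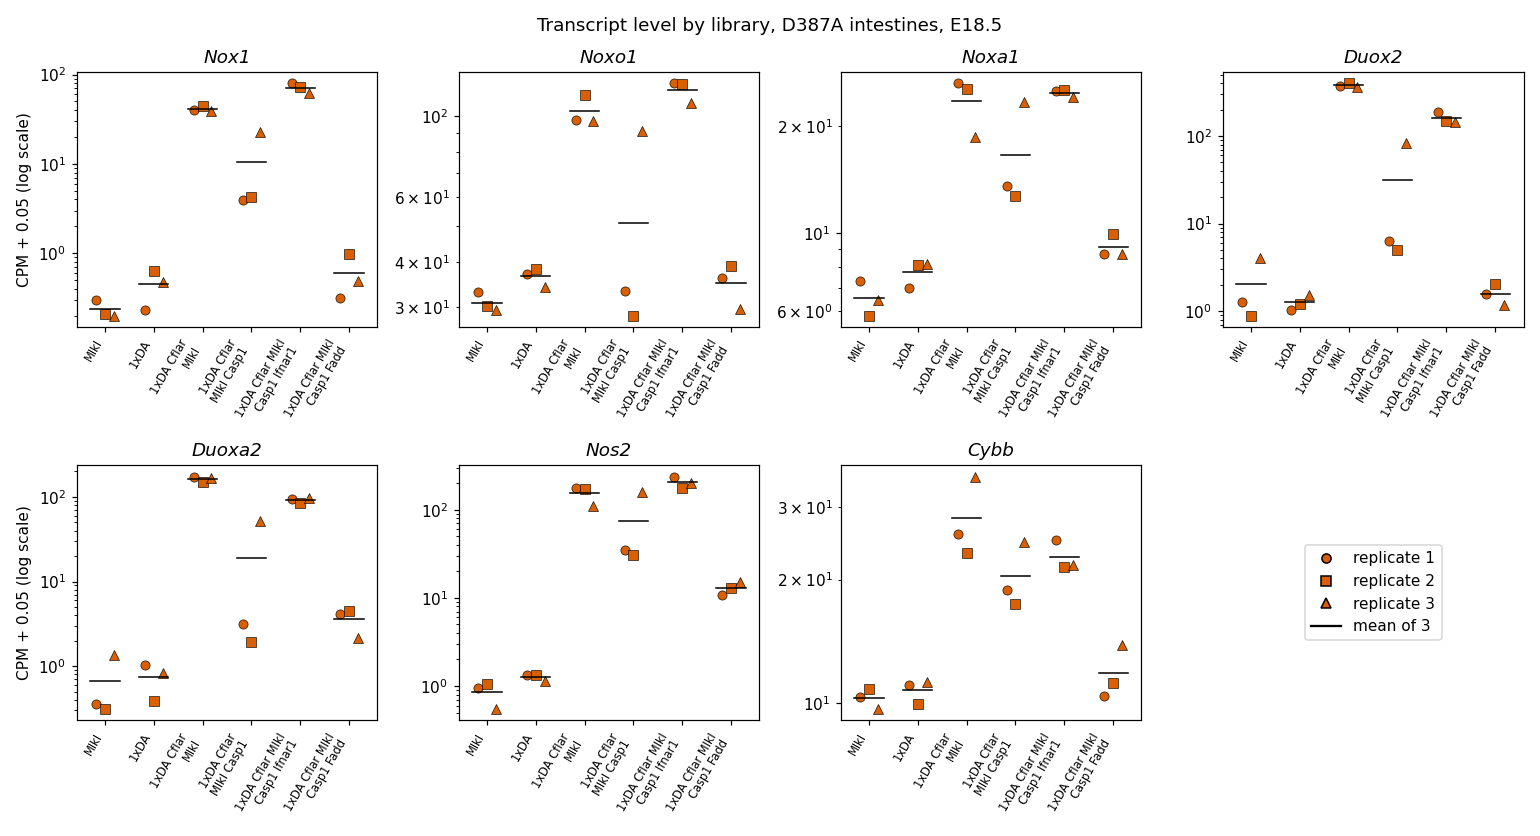
Level of each gene in CPM plus 0.05 (log axis) in the 18 intestines of the D387A set, by genotype, with symbols for replicates and a bar at the mean of 3. *Nox1*, *Duox2*, *Duoxa2* and *Nos2* range from at most 4.0 CPM in controls to between 38.8 and 398 CPM in the triple mutants, and the third *Casp1*-deficient embryo lies above the other two for every gene.

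*Casp8* 1xDA/1xDA embryos, which keep *Cflar* and *Mlkl*, had no member above 38.3 CPM. *Noxo1* (34.0 to 38.3 CPM against 29.5 to 33.0 CPM) and *Nos2* lay above the *Mlkl*-/- controls without overlap, as 9.37% of genes did, and the other 5 overlapped with them. The summed epithelial markers also lay above the controls (5081 to 5312 CPM against 4267 to 4824 CPM). The fibroblast markers lay below them (1932 to 2335 CPM against 2344 to 2503 CPM). The part of these markers was not tested. No member was called with edgeR's quasi-likelihood test, and 0.00545% of tested genes (1 gene) were called. At an unadjusted p under 0.05, 921 of 18360 genes passed, and none of the 7. *Nox1* was at 0.184, 0.585 and 0.427 CPM (log2 fold change 1.15, SE 1.31, adjusted p = 0.979) and *Nos2* at 1.29, 1.29 and 1.09 CPM (0.600, SE 0.920, adjusted p = 0.984). At these counts, standard errors above 1 on the log2 scale for *Nox1*, *Duox2* and *Duoxa2* left a 2-fold change undetectable. These genes passed the filter on low counts through the groups where they are high, so their lack of a call says little. For *Nos2* an SE of 0.920 left a 2-fold change undetectable as well. *Cybb* (0.06, SE 0.165) and *Noxa1* (0.25, SE 0.201) were measured more closely.

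Bulk RNA cannot tell fewer cells of a type from less RNA per cell. The summed epithelial markers were 4267 to 4824 CPM in controls and 5026 to 5406 CPM in the triple mutants (*Casp8* 1xDA/1xDA *Cflar*-/- *Mlkl*-/-). The 8 macrophage and monocyte markers summed to less in the latter (234 to 316 CPM) than in controls (410 to 436 CPM), while the 8 neutrophil markers summed to more (37.5 to 131 CPM against 5.04 to 23.0 CPM), with *Elane* at 0 reads in the triple mutants. The fibroblast markers (3176 to 3324 CPM against 2344 to 2503 CPM) and endothelial markers (313 to 381 CPM against 270 to 296 CPM) were higher there too, and the colon epithelium markers were lower (21.1 to 54.5 CPM against 67.5 to 111 CPM). Of the macrophage markers, 5 were nonetheless called higher and 2 lower, so the sum and the median of the list (1.19 on the log2 scale) differ in sign, and of 7 tested neutrophil markers 5 were called higher. Where *Cybb* was highest, in *Casp8* C362A/C362A *Mlkl*-/- intestines, the neutrophil markers summed to 309.9 to 393 CPM against 12.3 to 32.3 CPM in controls, and the macrophage markers to 618 to 628 CPM against 438 to 562 CPM. The part of these cells in the levels of the 7 genes was not tested.

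The question of how much of the pattern depended on caspase-1 was addressed by comparing intestines with and without *Casp1*. In the D387A set, loss of *Casp1* lowered *Nox1*, *Noxo1*, *Duox2* and *Duoxa2*. Of the 7 genes, 4 were called lower, against 4.51% of all genes tested, and none was called higher. Since a rise in the embryos with *Casp1* was known at the choice, falls are favoured and nothing is read from that count. *Nox1* was at 3.91, 4.22 and 22.8 CPM without *Casp1* and fell by 2.00 on the log2 scale (SE 0.438, adjusted p = 0.0012, edgeR's quasi-likelihood test). *Duox2* was at 6.36, 4.90 and 83.5 CPM and fell by 3.59 (SE 0.702, adjusted p = 0.000472), and *Duoxa2* was at 3.09, 1.89 and 51.7 CPM and fell by 3.13 (SE 0.707, adjusted p = 0.00156). The 2 low embryos and the third all lay below every embryo with *Casp1* for these genes, but the third was 14.8 times the mean of the other two for *Duox2* and 20.8 times for *Duoxa2*.

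*Noxo1*, at 33.2, 28.5 and 91.0 CPM, fell by 1.02 (SE 0.280, adjusted p = 0.00643), just past the fold threshold. *Nos2*, at 35.1, 31.0 and 159.5 CPM, differed by -1.03 and missed the p threshold (SE 0.414, adjusted p = 0.0501), and the third embryo lay among the embryos with *Casp1*. It was called without the third of the latter (-1.22, adjusted p = 0.0389), and with limma-voom (adjusted p = 0.00612), RLE size factors (0.0492) or no filter on low counts (0.00312). *Noxa1* (-0.51, adjusted p = 0.0309) and *Cybb* (-0.47, adjusted p = 0.0195) stayed under the fold threshold. Without the third embryo, *Nos2* was called too (-2.21, adjusted p = 2.72e-08), and *Nox1* differed by -3.33, *Noxo1* by -1.74, *Duox2* by -6.07 and *Duoxa2* by -6.04. The calls of *Noxo1* and *Duoxa2* were lost when only the 2 genotypes were fitted (adjusted p = 0.0835 and 0.0521), and that of *Noxo1* without the first or the second *Casp1*-deficient embryo (-0.79 and -0.73) or the second embryo with *Casp1* (-0.94).

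The 3 *Casp1*-deficient embryos did not differ for the oxidases alone. The third had 5592 CPM of epithelial markers against 3785 and 4203 CPM, 563 CPM of macrophage and monocyte markers against 373 and 369 CPM, and 19.7 CPM of neutrophil markers against 10.7 and 13.4 CPM. Its ratio to the mean of the other two was 5.61 for *Nox1*, 4.83 for *Nos2*, 2.95 for *Noxo1*, 1.78 for *Noxa1* and 1.36 for *Cybb*. Its *Casp1* level was as low as in the others. In the embryos with *Casp1* the epithelial markers were 5026 to 5406 CPM, the macrophage and monocyte markers 234 to 316 CPM and the neutrophil markers 37.5 to 131 CPM. The neutrophil markers were thus lower in all 3 embryos without *Casp1* (4 of 7 tested were called lower) and the epithelial markers in the 2 low ones. Macrophage and monocyte sums were higher in all 3, though 3 of these markers were called lower and 2 higher. The fibroblast markers were lower without overlap (2321 to 2634 CPM against 3176 to 3324 CPM). The part of these marker levels in the differences was not tested.

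Even without *Casp1*, some genes stood above *Mlkl*-/- intestines. As a description, *Nos2* in the 2 low embryos (35.1 and 31.0 CPM) was well above its controls (0.500 to 0.998 CPM), and *Nox1* (3.91 and 4.22 CPM) was above 0.252 CPM. *Noxo1* in these 2 embryos was at 33.2 and 28.5 CPM, beside 29.5 to 33.0 CPM in the controls. Over all 3 embryos 5 of the 7 genes passed the thresholds of a call, all upward, as 2.16% of genes did in this contrast. Nothing is read from that count. For *Noxo1* the log2 fold change of 0.72 went to -0.003 without the third embryo.

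In the C362A set the same question gave a different ranking of the genes. Loss of *Casp1* from *Casp8* C362A/C362A *Mlkl*-/- intestines lowered *Duox2*, *Duoxa2*, *Nos2* and *Cybb*, 4 of the 7 genes, against 5.72% of all genes called lower. The choice of genes favours falls here too, so nothing is read from that count. *Duox2* went from 191, 193 and 234 CPM to 10.1, 8.49 and 4.05 CPM (log2 fold change -4.77, SE 0.291, adjusted p = 9.99e-08 by edgeR). *Duoxa2* went from 139, 107 and 146 CPM to 10.8, 14.7 and 8.17 CPM (-3.54, SE 0.205, adjusted p = 6.64e-08). The embryos of each group were close together and the groups were far apart.

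*Nos2* went from 74.2, 68.2 and 76.3 CPM to 19.0, 25 and 14.7 CPM (-1.90, SE 0.212, adjusted p = 1.36e-05), and *Cybb* from 32.5, 39.9 and 44.9 CPM to 20.01, 16.3 and 15.9 CPM (-1.17, SE 0.164, adjusted p = 0.000104). The members of the NOX1 complex were not called: *Nox1* had 4.81, 3.95 and 3.76 CPM with *Casp1* and 3.25, 2.00 and 1.27 CPM without it (-0.94, SE 0.372, adjusted p = 0.0664), though it was called without the first *Casp1*-deficient embryo (-1.36, adjusted p = 0.0248). *Noxo1* differed by -0.45 (adjusted p = 0.162) and *Noxa1* by -0.61 (adjusted p = 0.035). The neutrophil markers went the same way as *Cybb*, from 309.9 to 393 CPM down to 18.3 to 21.6 CPM, while the macrophage and monocyte markers summed to 576 to 628 CPM in these 6 embryos. Of those 8 markers, however, 5 were called lower and 1 higher, with a median log2 fold change of -1.63, so the sum hides falls that went with *Cybb*. The fibroblast markers were lower too, without overlap (638 to 990 CPM against 1118 to 1526 CPM). The part of these cell types in the falls was not tested.

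The effect of *Casp1* loss was compared between the sets in a fit of all 30 intestines. No member was called at both thresholds (5.73% of genes were), and only *Cybb* had an adjusted p under 0.05, with a fall that was 0.72 smaller on the log2 scale in the D387A set (SE 0.230, adjusted p = 0.0319). For *Nox1* the difference was -1.04 (SE 0.648, adjusted p = 0.271) and for *Duox2* 1.20 (SE 0.805, adjusted p = 0.313). These values rest on the third *Casp1*-deficient embryo of the D387A set. Without it 4 members were called as falling further in that set, namely *Nox1* (-2.37, adjusted p = 0.000651), *Noxo1* (-1.25, adjusted p = 0.00417), *Duox2* (-1.27, adjusted p = 0.0287) and *Duoxa2* (-2.48, adjusted p = 8.13e-05), and *Cybb* was no longer under 0.05 (0.57, adjusted p = 0.0803). The sets also differ in *Cflar*, so the caspase-8 allele and *Cflar* cannot be told apart here.

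**Figure D2:**
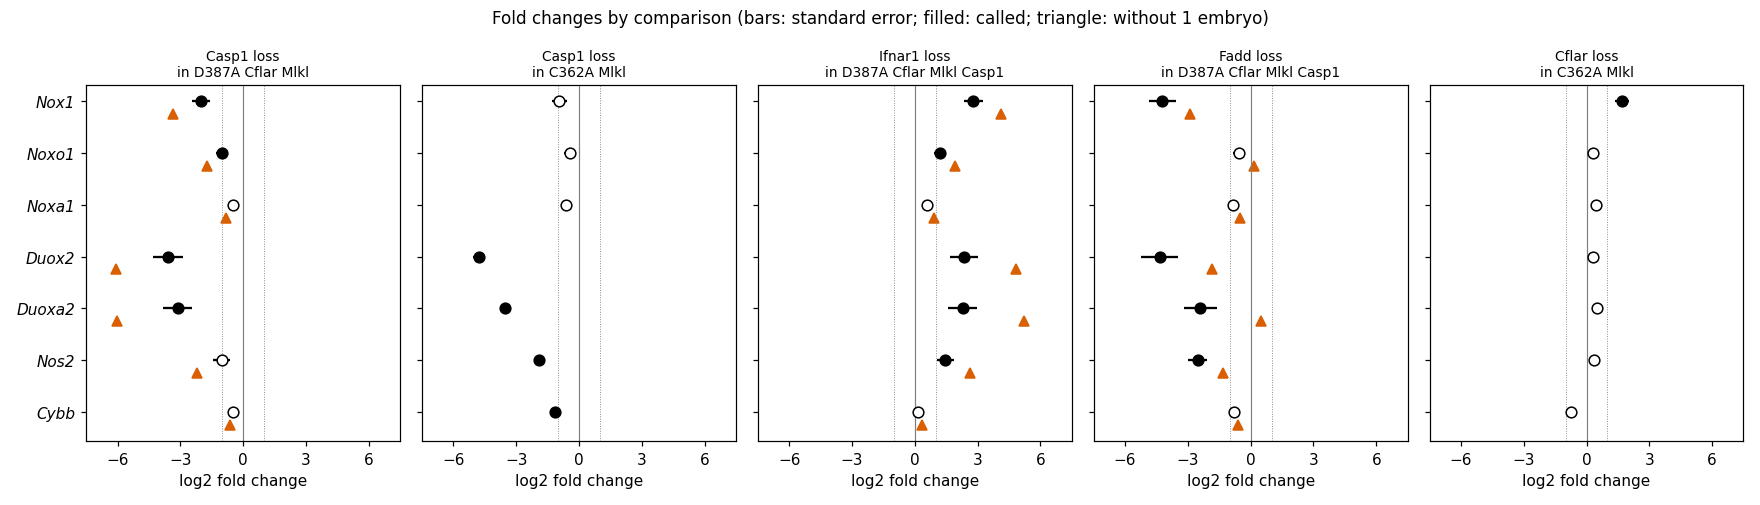
Log2 fold change of each gene (x axis) in 5 comparisons of mutant intestines, with bars of 1 standard error, filled circles for called genes, dotted lines at the fold threshold and triangles for the value without the third *Casp1*-deficient embryo of the D387A set. *Duoxa2* under *Fadd* loss crosses 0 when that embryo is left out, and in the last panel *Nox1* is the one called gene.

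Intestines that lacked *Ifnar1*, a subunit of the type I interferon receptor, as well as *Casp1* had higher levels of the oxidases than those that lacked *Casp1*. Loss of *Ifnar1* raised 5 of the 7 genes, against 3.28% of all genes called higher. *Nox1* was at 79.4, 72.2 and 61.9 CPM (log2 fold change 2.79, SE 0.445, adjusted p = 0.000563 by edgeR), above every other embryo of the set. *Noxo1*, at 123, 122 and 108 CPM, rose by 1.21 (SE 0.281, adjusted p = 0.0046), and *Nos2*, at 237, 178 and 203 CPM, rose by 1.45 (SE 0.417, adjusted p = 0.0151).

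*Duox2* was at 188, 147 and 145 CPM (2.34, SE 0.672, adjusted p = 0.0152) and *Duoxa2* at 93.8, 84.4 and 96.3 CPM (2.28, SE 0.690, adjusted p = 0.0197). *Noxa1* (0.59, adjusted p = 0.0231) and *Cybb* (0.16, adjusted p = 0.471) were not called. Without the third *Casp1*-deficient embryo the same 5 genes were called, with log2 fold changes from 1.94 for *Noxo1* to 5.20 for *Duoxa2*. Without the first *Casp1*-deficient embryo 1 member was called, without the second 2 were, and with only the 2 genotypes in the fit 1 was, *Nox1*. The epithelial markers were 5720 to 5944 CPM in the *Ifnar1*-deficient embryos and 3785 to 5592 CPM in those lacking *Casp1* alone, and the macrophage markers were 548 to 630 CPM against 369 to 563 CPM. The fibroblast markers (1716 to 2043 CPM against 2321 to 2634 CPM) and endothelial markers (251 to 283 CPM against 339.6 to 382 CPM) were lower without overlap. Their part was not tested.

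Set beside *Casp8* 1xDA/1xDA *Cflar*-/- *Mlkl*-/- intestines with *Casp1* and *Ifnar1* present, the embryos lacking both did not return to a uniform level. *Nox1* was higher (61.9 to 79.4 CPM against 38.8 to 44.3 CPM), *Nos2* was higher by a narrow gap (178 to 237 CPM against 109.9 to 177 CPM), *Noxo1*, *Noxa1* and *Cybb* overlapped, and *Duox2* was lower (145 to 188 CPM against 363 to 398 CPM), as was *Duoxa2* (84.4 to 96.3 CPM against 151 to 173 CPM). These ranges are given without a test. Against *Mlkl*-/- intestines all 7 genes passed the thresholds upward, as 6.76% of genes did, and nothing is read from that count.

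Loss of *Fadd*, which encodes the adaptor that recruits caspase-8 to death receptors, on top of *Casp1* left *Nox1* and *Duox2* under 2 CPM and *Nos2* at 10.8 to 15.2 CPM. Against embryos lacking *Casp1* alone, 4 of the 7 genes were called lower, and 0.877% of all genes tested were. The choice of genes favours falls here as well, and nothing is read from that count. *Nox1* was at 0.266, 0.923 and 0.439 CPM (log2 fold change -4.23, SE 0.638, adjusted p = 0.000283 by edgeR) and *Duox2* at 1.51, 1.98 and 1.14 CPM (-4.35, SE 0.875, adjusted p = 0.00257). *Nos2* was at 10.8, 13.0 and 15.2 CPM (-2.53, SE 0.451, adjusted p = 0.00105). All 3 genes were below every embryo of this set that had *Fadd* and lacked *Casp1*.

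*Duoxa2* was at 4.12, 4.44 and 2.11 CPM (-2.40, SE 0.807, adjusted p = 0.0481), within the range of the embryos lacking *Casp1*, and its sign rests on 1 library: without the third *Casp1*-deficient embryo it was 0.51 (adjusted p = 0.306). Leaving out any of the 3 *Fadd*-deficient embryos also ended the call. With limma-voom the calls of *Duox2* (adjusted p = 0.0589) and *Duoxa2* (0.482) were lost, and with only the 2 genotypes fitted *Nox1* alone was called. *Noxo1* went from -0.54 to 0.18 without the third *Casp1*-deficient embryo and was called in neither. *Nox1* (-2.89), *Duox2* (-1.87) and *Nos2* (-1.34) stayed called without it, while *Noxa1* (-0.86, adjusted p = 0.00482, and -1.02 without the second *Casp1*-deficient embryo) and *Cybb* (-0.78, adjusted p = 0.00288) were under the fold threshold. The epithelial markers were 5302 to 5771 CPM in the *Fadd*-deficient embryos against 3785 to 5592 CPM, the fibroblast markers 1880 to 2200 CPM against 2321 to 2634 CPM and the endothelial markers 269 to 299.8 CPM against 339.6 to 382 CPM. Macrophage and monocyte markers (488 to 518 CPM) and neutrophil markers (5.71 to 23.2 CPM) overlapped between the groups. Their part was not tested.

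*Nos2* had the largest log2 fold change of the members over *Mlkl*-/- intestines in the embryos without *Fadd*. As a description, its 10.8 to 15.2 CPM lay above the 0.500 to 0.998 CPM of *Mlkl*-/- embryos in all 3 embryos, a log2 fold change of 4.02 (SE 0.670). *Duoxa2* was next, at 2.11 to 4.44 CPM against 0.263 to 1.30 CPM. *Duox2*, *Noxo1* and *Cybb* overlapped with the controls. *Nox1* and *Noxa1* lay just above them. In this contrast 1 of the 7 genes, *Nos2*, passed the thresholds of a call, and 2.81% of all genes passed upward. Nothing is read from that count.

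In the C362A set, the comparison with *Mlkl*-/- intestines is likewise a description. *Nox1* had 1, 0 and 2 reads in the controls and 133, 111 and 104 reads in *Casp8* C362A/C362A *Mlkl*-/- embryos, 110.1 times the control level with an exact 95% counting interval of 37.4 to 537. *Duox2* had 0.331, 1.03 and 0.523 CPM in controls and 191 to 234 CPM in the mutants (log2 fold change 8.32, SE 0.372), and *Duoxa2* 0.294, 0.413 and 0.218 CPM against 107 to 146 CPM (8.67, SE 0.299). Without the second control *Duox2* was at 8.91. *Nos2* had 0.993, 0.826 and 0.785 CPM against 68.2 to 76.3 CPM (6.38, SE 0.287). Here *Nox1* reached 3.76 to 4.81 CPM, compared with 38.8 to 44.3 CPM in the *Casp8* 1xDA/1xDA *Cflar*-/- *Mlkl*-/- embryos of the other set, which was fitted on its own.

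*Noxo1* had 24.9, 36.9 and 45.9 CPM in the controls of this set and 94.7, 137 and 98.8 CPM in the *Casp8* C362A/C362A *Mlkl*-/- embryos (log2 fold change 1.62, SE 0.247). *Noxa1* had 5.37, 4.51 and 5.97 CPM against 14.3, 17.6 and 13.1 CPM (1.51, SE 0.216), and *Cybb* 7.91, 8.91 and 7.54 CPM against 32.5 to 44.9 CPM (2.27, SE 0.171). All 7 genes passed the thresholds in this contrast and in the one of *Casp8* C362A/C362A *Cflar*-/- *Mlkl*-/- embryos, and 6 did for the embryos lacking *Casp1*, beside 10.4%, 13.4% and 6.79% of all genes called higher. The 3 contrasts share their controls, and nothing is read from these counts.

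Loss of *Cflar* on the C362A background raised *Nox1*. It had 21.5, 10.1 and 9.10 CPM in the *Casp8* C362A/C362A *Cflar*-/- *Mlkl*-/- embryos against 3.76 to 4.81 CPM with *Cflar* (log2 fold change 1.70, SE 0.349, adjusted p = 0.00404 by edgeR). The first embryo was the highest, all 3 were above the embryos with *Cflar*, and without any 1 library the log2 fold change stayed between 1.20 and 1.91. No other member was called, and 1.45% of all genes were called higher. *Duox2* had 291, 231 and 255 CPM (0.33, SE 0.242, adjusted p = 0.379) and *Nos2* 88.5, 66.8 and 126 CPM (0.36, SE 0.201, adjusted p = 0.236). *Duoxa2*, at 217, 173 and 163 CPM, did not overlap with the embryos that kept *Cflar* (0.50, SE 0.182, adjusted p = 0.0698). *Cybb* was lower, at 19.0, 22.9 and 28.2 CPM, with a difference under the fold threshold (-0.74, SE 0.161, adjusted p = 0.00563), and the neutrophil markers were lower as well (162 to 267 CPM). The macrophage and monocyte markers also went with *Cybb*, at 340 to 394 CPM against 618 to 628 CPM with *Cflar*, with 2 of 8 called lower and none higher. The part of these cells was not tested.

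**Figure D3:**
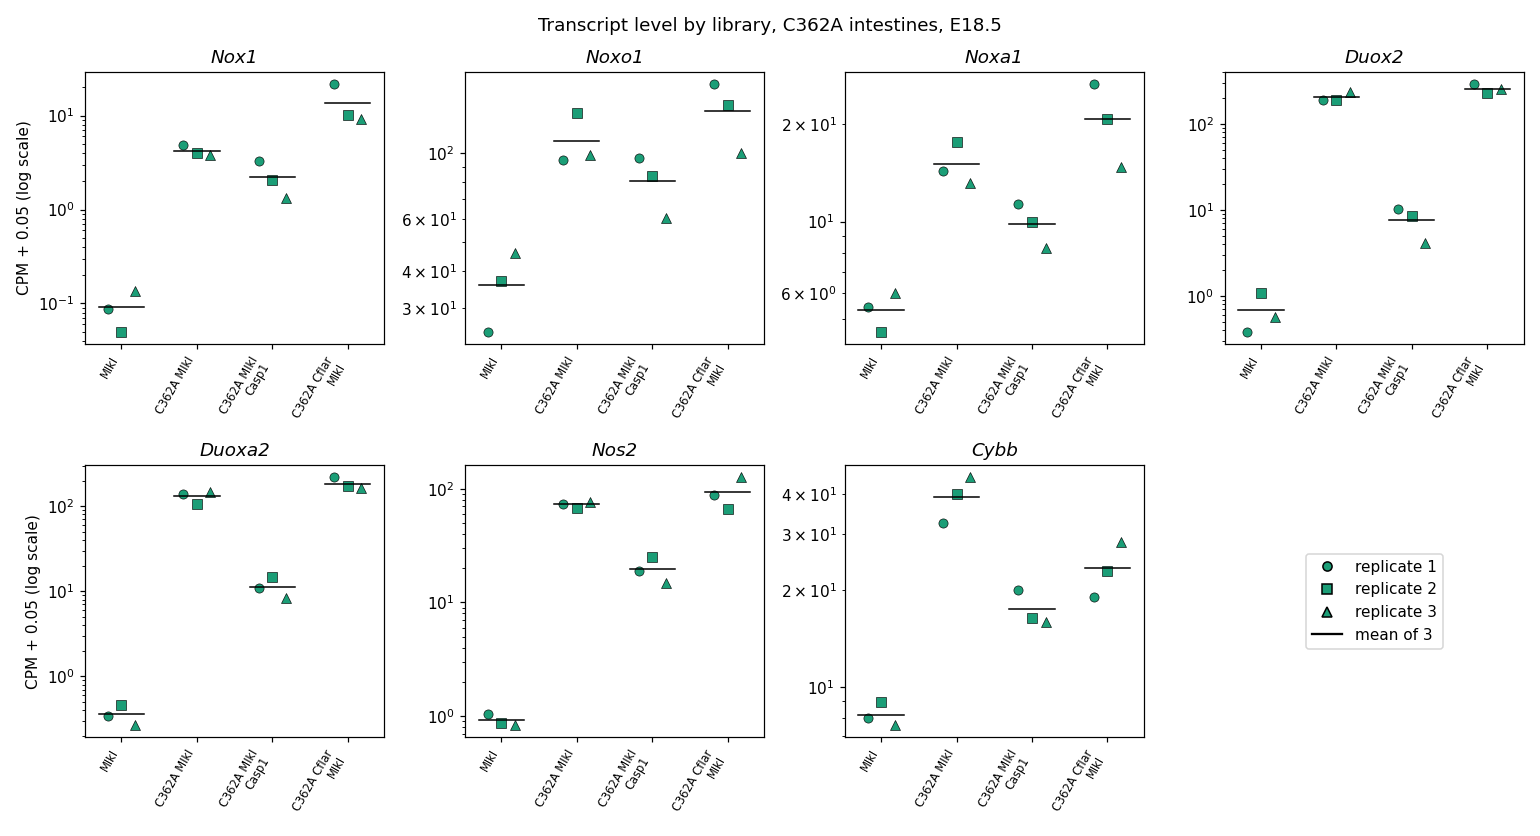
Level of each gene in CPM plus 0.05 (log axis) in the 12 intestines of the C362A set, by genotype, with symbols for replicates and a bar at the mean of 3. *Duox2* lies at 191 to 234 CPM in the *Casp8* C362A/C362A *Mlkl*-/- embryos and at 4.05 to 10.1 CPM without *Casp1*, *Nox1* is highest without *Cflar*, and *Cybb* is highest with *Cflar* and *Casp1* present.

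Ratios of length-scaled levels within a library show how the subunits of 1 complex stood to each other. *Nox1* was 0.00445 to 0.00667 times *Noxo1* in *Mlkl*-/- embryos of the D387A set, 0.337 to 0.361 times in *Casp8* 1xDA/1xDA *Cflar*-/- *Mlkl*-/- embryos and 0.499 to 0.564 times in those lacking *Casp1* and *Ifnar1*. In the C362A set the highest ratio was 0.110, in an embryo lacking *Cflar*. *Noxo1* to *Noxa1* varied much less, between 1.63 and 3.87 in the D387A set and between 3.36 and 6.18 in the C362A set.

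*Duox2* was 0.596 to 0.731 times *Duoxa2* in *Casp8* 1xDA/1xDA *Cflar*-/- *Mlkl*-/- embryos and 0.101 to 0.150 times in those lacking *Casp1* and *Fadd*, where the reads are few (26 to 45 for *Duox2* and 48 to 101 for *Duoxa2*). It was 0.380 to 0.501 times in *Casp8* C362A/C362A *Mlkl*-/- embryos and 0.137 to 0.260 times without *Casp1*. In other groups with low levels the ratio was 0.853 to 1.11 in *Mlkl*-/- embryos of the D387A set and 0.312 to 0.693 in those of the C362A set (5 to 26 *Duoxa2* reads a library), 0.277, 0.970 and 0.527 in *Casp8* 1xDA/1xDA embryos, and 0.571 and 0.719 in the 2 low *Casp1*-deficient embryos. The balance between the oxidases differed by genotype as well. *Duox2* was 4.01 to 4.17 times *Nox1* in *Casp8* 1xDA/1xDA *Cflar*-/- *Mlkl*-/- embryos. The ratio was 0.517 to 1.63 in those lacking *Casp1* and 0.906 to 1.06 in those lacking *Casp1* and *Ifnar1*. In the C362A set it was 17.7 to 27.8 in *Casp8* C362A/C362A *Mlkl*-/- embryos, 6.04 to 12.5 without *Cflar* and 1.39 to 1.90 without *Casp1*. Ratios of the 2 sets come from tables scaled separately, but a ratio within a library does not depend on that scaling. Set and genotype still cannot be told apart between the sets. At low counts, *Duox2* to *Duoxa2* did not overlap between their *Mlkl*-/- controls.

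**Figure D4:**
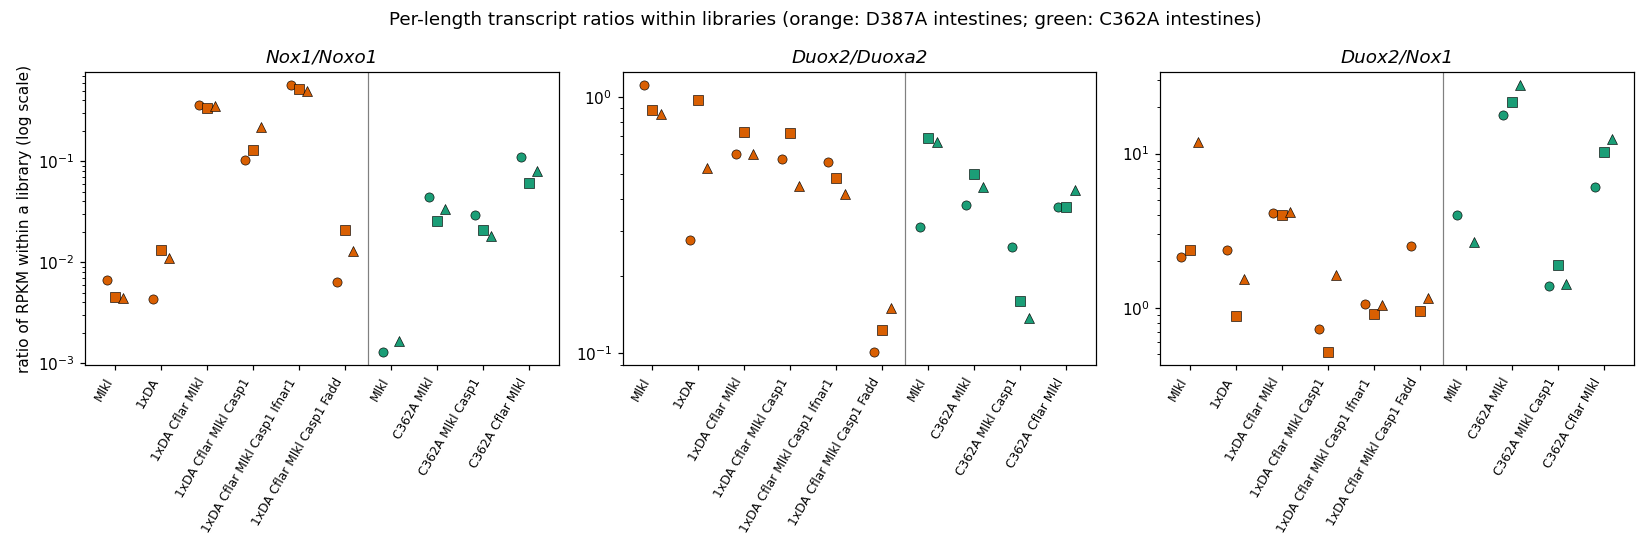
Ratio of RPKM within each library (log axis) for *Nox1* to *Noxo1*, *Duox2* to *Duoxa2* and *Duox2* to *Nox1*, by genotype, with the D387A set in orange, the C362A set in green and circles, squares and triangles for replicates 1, 2 and 3; the control library with 0 *Nox1* reads is not drawn. *Nox1* to *Noxo1* is highest in the *Casp1* and *Ifnar1*-deficient embryos (0.499 to 0.564), and *Duox2* to *Duoxa2* is lowest in the *Casp1* and *Fadd*-deficient embryos (0.101 to 0.150).

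In MEFs 5 of the 7 genes were at or near 0, and *Cybb* was at several CPM. *Noxa1* and *Duoxa2* had no read in any of the 6 libraries, where a count of 0 allows up to 3 reads per library, *Nos2* had 2 reads in 1 library, and *Nox1* had 1 read in 1 control and 4 in 1 mutant library. Only *Noxo1* and *Cybb* passed the filter on low counts. *Noxo1* had 1.08, 0.689 and 0.422 CPM in *Mlkl*-/- MEFs and 1.23, 0.756 and 0.582 CPM in the *Casp8* 1xDA/1xDA *Cflar*-/- *Mlkl*-/- MEFs (log2 fold change 0.18, SE 0.441, adjusted p = 0.963). *Cybb* had 3.69, 2.40 and 3.28 CPM in controls and 6.61, 5.10 and 8.12 CPM in the mutants, without overlap (1.09, SE 0.231, adjusted p = 0.234, unadjusted p = 0.00135). Neither was called by edgeR (*Cybb* was with DESeq2, adjusted p = 0.00679, and without the filter on low counts, 0.0108), and 0.0711% of genes were (11 genes, or 19 with the replicate number as a block). The macrophage and monocyte markers summed to 74.2 to 104 CPM in control and 179 to 215 CPM in mutant MEFs, with *Ly6c2* at 0 in controls, and their part was not tested.

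Other genes that work with these enzymes were taken from lists of 43 genes, of which 41 passed the filter in the intestines. Between *Casp8* 1xDA/1xDA *Cflar*-/- *Mlkl*-/- and *Mlkl*-/- intestines, 11 were called higher and 9 lower, against 9.40% and 12.8% of all genes. The median log2 fold change of the 41 was 0.45, and that of all genes tested was -0.006. Of the 6 phagocyte oxidase partners, 4 rose: *Ncf4* (2.93), *Ncf1* (1.48), *Rac2* (1.33) and *Cyba* (1.28), which encodes the membrane partner shared by NOX1 and the *Cybb* product. *Rac1* (0.34) stayed under the fold threshold. *Cyba* went from 95.5 to 108 CPM in controls to 219 to 282 CPM in the mutants (adjusted p = 0.0001 by edgeR).

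Other oxidases differed in direction in the same contrast. *Nox4*, a constitutively active oxidase, fell from 61.8 to 69.1 CPM in controls to 2.82 to 4.36 CPM in the mutants (-4.20, SE 0.190, adjusted p = 1.51e-11). *Duox1* had 4 reads over the controls and 29 over the mutants (2.50, SE 0.759, adjusted p = 0.00891). Its maturation factor *Duoxa1* had no read in the controls and 40 over the mutants, and since its gene overlaps *Duoxa2* by 695 bases on the opposite strand, those reads are uncertain. *Duoxa2* had 11612 reads in the same mutants.

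Among genes that use or supply the products, *Lpo*, a peroxidase that uses hydrogen peroxide, rose from 0.0525 to 0.403 CPM to 5.64 to 10.2 CPM (5.41, adjusted p = 1.88e-07), and *Gpx2*, the gastrointestinal glutathione peroxidase, rose by 4.12 (adjusted p = 6.62e-08). *Ass1*, which with *Asl* remakes arginine for nitric oxide synthesis, fell by 3.53 on the log2 scale (adjusted p = 6.83e-12), and *Gpx3*, the secreted glutathione peroxidase, fell by 3.50 (adjusted p = 6.99e-10). Of 8 Nrf2 target genes 2 rose and 1 fell, where 9.40% of all genes rose and 12.8% fell.

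For the 41 genes in *Casp8* C362A/C362A *Mlkl*-/- intestines, 14 passed upward and 5 downward, against 10.4% and 7.55% of all genes, with a median of 0.36 beside 0.02 for all genes. *Gpx2* (4.22), *Lpo* (3.83) and *Arg1* (3.58), the arginase that competes for arginine, rose most, and *Cat* (-2.41), *Ass1* (-2.04) and *Gclm* (-1.57) fell most. *Ncf4* rose by 3.47, *Ncf1* by 2.53 and *Rac2* by 2.21, and *Cyba* (0.87) stayed under the fold threshold. *Nox4* was called lower here too (-1.27).

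Loss of *Casp1* moved part of the list. In the D387A set 8 of the 41 fell and 5 rose, against 4.51% and 8.88% of all genes. *Lpo* fell by 6.17, *Arg1* by 4.61 and *Duoxa1* by 3.46, though *Duoxa1* had only 3 reads left and *Lpo* 0, 1 and 6. The reads of *Duoxa1* are uncertain here too, given its overlap with *Duoxa2*. *Nox4* rose by 3.53, *Gpx3* by 2.19 and *Ass1* by 2.15. Without the third *Casp1*-deficient embryo 9 fell and 5 rose, 12 of them called in both fits. Among C362A embryos 10 fell and 4 rose, against 5.72% and 5.60%. There *Lpo* fell by 3.51, *Arg1* by 3.49 and *Slc7a11*, the cystine transporter, by 2.56, and *Ncf1*, *Ncf4*, *Rac2* and *Duox1* fell as well, while *Nox4* rose by 1.55, *Ass1* by 1.45 and *Cat* by 1.17.

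Loss of *Ifnar1* raised 12 of the 41 genes and lowered none, beside 3.28% called higher and 2.03% called lower of all genes. *Duoxa1* (3.21, 34 reads against 3), *Lpo* (2.94) and *Sod3* (2.39), the secreted superoxide dismutase, rose most. The reads of *Duoxa1* remain uncertain because it overlaps *Duoxa2*, which also rose. *Duox1* (1.66), *Ncf4* (1.45) and *Cyba* (1.00, SE 0.222, adjusted p = 0.00364 by edgeR) rose as well. Loss of *Fadd* raised *Nox4* (1.37) and *Gpx3* (1.13) and lowered *Ncf4* (-1.05), with 2.56% of all genes called higher. Without the third *Casp1*-deficient embryo 13 rose and 1 fell after loss of *Ifnar1*, 12 of them called in both fits, with *Cyba* at 1.41, and after loss of *Fadd* 3 rose and *Ncf4* (-0.66) was not called. Loss of *Cflar* on the C362A background raised *Lpo* (2.18) and *Arg1* (1.26) and lowered 5 genes (4.62% of all genes were), most of all *Nox4* (-2.57), *Gpx3* (-2.48) and *Duox1* (-1.41). In MEFs and in *Casp8* 1xDA/1xDA intestines none of the listed genes was called.

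**Figure D5:**
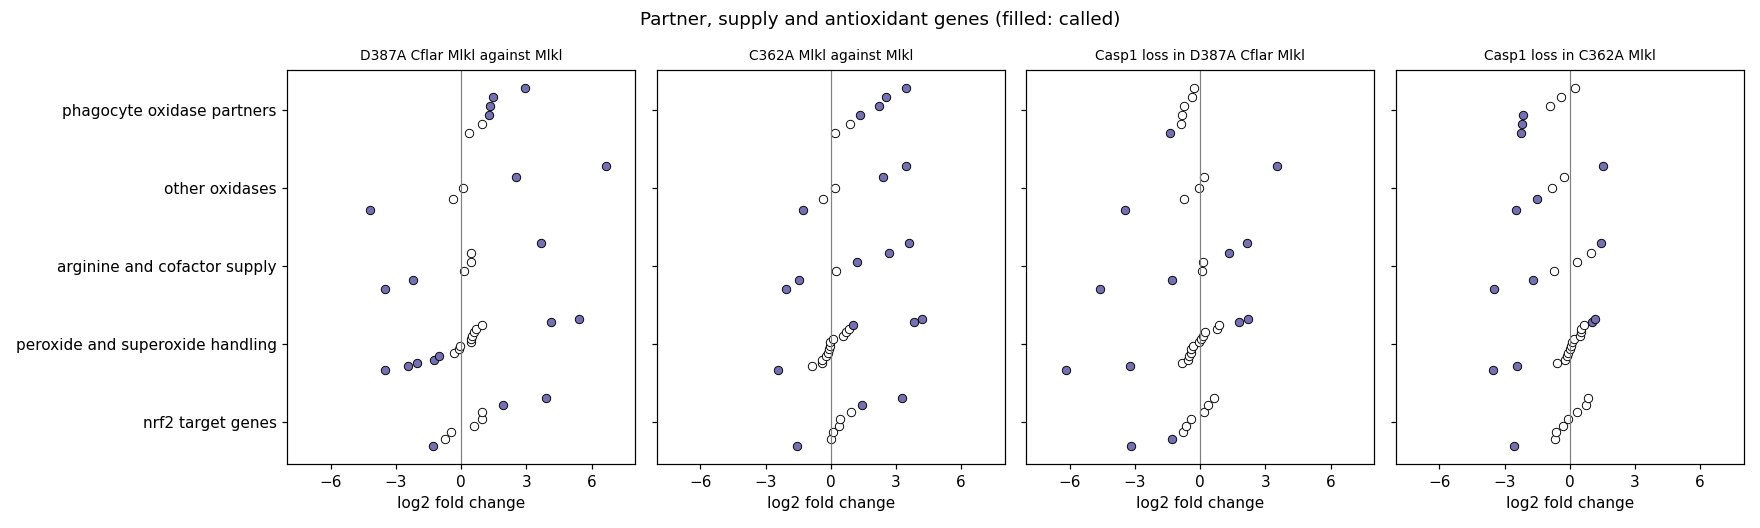
Log2 fold change (x axis) of the 41 tested partner, supply and antioxidant genes by list in 4 comparisons, 1 point per gene, filled where called. Among the phagocyte oxidase partners 4 of 6 are called higher in the first panel, and *Nox4* is the lowest point of the other oxidases in the first 2 panels and the highest after loss of *Casp1*.

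The genes whose levels followed each member most closely were found over the 18 libraries of the D387A set, as Pearson's r of log2(CPM + 0.5) among 15665 genes with a mean of at least 1 CPM, leaving the 7 members out of the ranking. The libraries fall into genotype groups that share large changes, so r is high for many genes and no p is given. *Nox1* was most like *Map3k14* (r = 0.986), *Ncf4* (0.984) and *Tmem176b* (0.977), with r of 0.964, 0.883 and 0.722 over the 12 libraries of the C362A set. *Noxo1* was most like *Pglyrp1* (0.983), *Krt8* (0.974) and *Ccdc88b* (0.972), with 0.952, 0.658 and 0.870 in the C362A set. *Noxa1* was most like *Nfkbia* (0.978), *Birc3* (0.978) and *Zc3h12a* (0.977), with 0.909, 0.924 and 0.924 in the C362A set.

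*Duox2* was most like *Capg* (0.989), *Slc25a48* (0.987) and *Plet1* (0.986), with 0.955, 0.905 and 0.955 in the C362A set. *Duoxa2* was most like *Rhof* (0.989), *Gsr* (0.983) and *Pglyrp1* (0.981), with 0.969, 0.965 and 0.956 in the C362A set. *Nos2* was most like *Icam1* (0.993), *Saa3* (0.987) and *Nfkbia* (0.984), with 0.936, 0.990 and 0.976 in the C362A set. *Cybb* was most like *Spi1* (0.978), *Runx3* (0.973) and *Traf3* (0.971), with 0.971, 0.823 and 0.889 in the C362A set. Between the members r ranged from 0.825 (*Noxo1* and *Cybb*) to 0.979 (*Nox1* and *Noxa1*) in the D387A set, and from 0.742 (*Nox1* and *Cybb*) to 0.987 (*Duox2* and *Duoxa2*) in the C362A set.

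Some of these genes overlap others, and whether counting used strand is not given in the sources used here. *Noxo1* shares 2581 bases with *Tbl3* on the opposite strand, whose level was 33.1 to 36.0 CPM in *Mlkl*-/- and 40.2 to 46.4 CPM in the *Casp8* 1xDA/1xDA *Cflar*-/- *Mlkl*-/- intestines. *Nox1* shares 399 bases with *Cstf2*, which was 49.7 to 51.8 CPM and 103 to 125 CPM in the same groups, and 13034 bases with *Xkrx* on its own strand, which was at most 1.26 CPM in these groups, and 20528 bases with *Arl13a*, which had 18 reads in all libraries. *Noxa1* shares 50 bases with *Entpd8*, which was at 41.3 to 44.7 CPM and 22.6 to 27.8 CPM. *Duox2*, *Nos2* and *Cybb* overlapped no other gene in the annotation.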

How the data were processed

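RNA of 30 intestines and 6 MEF cultures was sequenced by the authors as single-end reads of 50 bases and aligned with GSNAP to GRCm38/mm10, keeping uniquely mapped reads. The authors deposited 1 table per library with a read count, a width in bases and an RPKM value (reads per kilobase of width, scaled to library size) for each gene. The deposited RPKM values were not used, and RPKM was recomputed from the counts, the deposited width and the normalised library size. Counting program and strand setting are not given in the sources used here. The labels name an unstranded kit and a HiSeq4000, whereas the study's methods name a stranded kit and other instruments. Members and gene lists were chosen with earlier results of these data known.

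Counts of each set (D387A, C362A, MEFs) were fitted apart with edgeR 4.0.16 (R 4.3.3) by the quasi-likelihood test, after filterByExpr (minimum count 10, total 15) and TMM normalisation, with a prior count of 0.125. Genes were called at a Benjamini-Hochberg adjusted p under 0.05 over all genes tested and a log2 fold change above 1 or below -1. Standard errors were taken from the F statistic, as the log2 fold change over its square root. The effect of *Casp1* loss was compared between sets in 1 fit of 30 libraries. Other settings tried were DESeq2 1.42.0, limma-voom (limma 3.58.1), RLE size factors, other filters, a prior count of 2, leaving out each library, a block for the replicate number, and fits of 2 genotypes only. The fits were tested on simulated data.

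Named were the members, their partners, up to 3 listed genes with the largest rise and fall per comparison, the 3 genes most like each member, label checks, overlapping genes and markers. Values of 1 gene of the partner lists are not reported here; it is counted in the list totals. *Cstf2*, *Tbl3*, *Xkrx*, *Arl13a* and *Entpd8* are named as overlapping genes only.

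Same-numbered libraries deviated together in 2 of 14 comparisons, *Casp8* 1xDA/1xDA against *Mlkl*-/- intestines and the MEFs, where every pair had r above 0.1. The labels do not say what the numbers share. Library totals of 17943524 to 32307629 reads set the precision, and counting intervals cover counting error only.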

Additional observations from a re-analysis of the deposited data

Results flagged for a closer look

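The effect of *Casp1* loss on *Cybb* had an adjusted p under 0.05 for its difference between the backgrounds, but the difference was under the fold threshold of a call, and its p rested on 1 library. *Cybb* fell by 1.17 on the log2 scale in *Casp8* C362A/C362A *Mlkl*-/- intestines and differed by -0.47 in *Casp8* 1xDA/1xDA *Cflar*-/- *Mlkl*-/- intestines. The difference between the 2 effects, tested as an interaction with edgeR, was 0.72 (SE 0.230, adjusted p = 0.0319), and 0.57 (adjusted p = 0.0803) without the third *Casp1*-deficient embryo of the D387A set. In the C362A set 6 of 7 tested neutrophil markers and 5 of 8 macrophage and monocyte markers were called lower after *Casp1* loss, and 1 macrophage and monocyte marker was called higher, beside 5.72% of all genes called lower. In the D387A set 4 and 3 were called lower and 2 macrophage and monocyte markers higher, beside 4.51% of all genes called lower. Their part in the difference was not tested.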

How the results depend on the processing

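Exceptions are given here or beside the result, and causes were not tested. DESeq2 gave no adjusted p for 2 members, *Duox2* and *Duoxa2*, in any comparison of the D387A set, so its member counts there cover the other 5 and include 2 for *Casp1* loss, 3 for *Ifnar1* loss and 2 for *Fadd* loss. The members called went from 5 to 3 in the *Casp1*-deficient group against *Mlkl*-/- with limma-voom and with 2 genotypes fitted, and for *Fadd* loss from 4 to 2 and 1. With 2 genotypes fitted they were 2 (of 4) for *Casp1* loss in the D387A set, 1 (of 5) for *Ifnar1* loss and 2 (against 1) for the *Fadd*-deficient group against *Mlkl*-/-, and all genes called were 456 (796), 411 (975) and 322 (631) for the *Casp1*-deficient group against *Mlkl*-/-, *Ifnar1* loss and *Fadd* loss. With a mean of at least 50 reads, fewer genes are tested, and the calls were 524 (796) and 1454 (2278) for the *Casp1*- and the *Casp1* and *Ifnar1*-deficient groups against *Mlkl*-/-, 1581 (2459) for *Casp1* loss and 573 (975) for *Ifnar1* loss. For *Casp8* 1xDA/1xDA alone the 1 gene called became 3 with DESeq2, 14 without a filter and 7 with 2 genotypes fitted. In MEFs the 11 genes became 36 with DESeq2 and 45 without a filter, each with 1 member (*Cybb*). The interaction of *Duoxa2* (0.43) turned to -1.04 with limma-voom.

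With the replicate number as a block, the MEF calls rose to 19 genes, and the interaction of *Duoxa2* was -0.094. Same-number correlations ran from -0.523 to 0.408 over the 14 comparisons. The block also called *Nos2* after *Casp1* loss in the D387A set (-1.23) and *Nox1* after *Casp1* loss in the C362A set (-1.02), and not *Duoxa2* after *Fadd* loss (-1.88), and it changed no other call of a member.

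With 1 library left out, members called against *Mlkl*-/- ranged from 5 to 7 in the *Casp1*-deficient group of the D387A set, where *Cybb* passed the fold threshold without the second control or the first or second *Casp1*-deficient embryo (1.02 to 1.08) and *Noxo1* without the latter (1.01), and from 4 to 6 in that of the C362A set, where *Noxo1* was lost without the first control (0.93) and, with *Cybb* (0.97), without the first *Casp1*-deficient embryo (0.99). Genes called ranged from 582 to 1740 and members from 1 to 5 for *Ifnar1* loss, genes from 2 to 14 in MEFs, and members from 0 to 4 for the interaction. Directions turned for *Duox2* (-1.08 to 0.26) and *Duoxa2* (-0.26 to 1.23) in *Casp8* 1xDA/1xDA, *Duox2* in the *Fadd*-deficient group against *Mlkl*-/- (-0.76 to 0.58), *Noxo1* in the *Casp1*-deficient group against *Mlkl*-/- (-0.0033 to 1.01), *Noxo1* (-0.83 to 0.18) and *Duoxa2* (-2.94 to 0.51) under *Fadd* loss, *Noxo1* in MEFs (-0.17 to 0.58), and for the interaction *Noxa1* (-0.20 to 0.29), *Duox2* (-1.27 to 1.71), *Duoxa2* (-2.48 to 0.97) and *Nos2* (-0.29 to 1.26). Genes with under 20 reads per group, such as *Nox1* in *Mlkl*-/- intestines, allow large changes to be seen but not their exact size.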
